A study of Mus musculus with 7 samples.

Results

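The genes described here are the FOS and JUN subunits of the transcription factor AP-1 together with Atf3, Maff and Egr1. They were taken by name from the count table of Paneth cells (PCs), as 10 of the 55414 Ensembl identifiers that it holds. PCs are secretory cells of the small intestine that sit at the crypt base and release antimicrobial granules. They had been purified with a cell sorter from C57BL/6J mice, 15 h after the mice received tumour necrosis factor (TNF) or, as control, phosphate-buffered saline (PBS). The series comprised 3 PBS and 4 TNF libraries, each from another mouse, with 15511455 to 19193721 counts per library. The sources used here give no dose, no sex or age of the mice and no surface markers of the sort.

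AP-1 is a dimer of basic leucine zipper (bZIP) proteins. FOS proteins (Fos, Fosb, Fosl1, Fosl2) bind DNA only with a partner, usually a JUN protein (Jun, Junb, Jund), whereas JUN proteins can also pair with each other. Atf3 is a stress-induced bZIP protein that can pair with JUN proteins, Maff is a small MAF protein that lacks a transactivation domain, and Egr1 is a zinc finger factor. Many of these genes are immediate early genes, which are transcribed within minutes of a stimulus without new protein synthesis and whose mRNAs are short-lived. TNF is known to reach AP-1 through the MAP kinases JNK and p38, and tissue dissociation itself is known to induce several of these genes.

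The promoters of 4 members are shown because they cover a gene that fell (Fosb), its paralog that was not called (Fos) and 2 genes that rose (Fosl2 and Jun). Each is the 250 bases before the annotated start, 5′ to 3′ on the strand of the gene, from RefSeq on GRCm38.p6. Capitals mark matches to the NF-kB motif in the FOS family genes and to the CRE-like sequence TGACATCA in Jun.
Fos (chr12:85473640-85473889, plus strand): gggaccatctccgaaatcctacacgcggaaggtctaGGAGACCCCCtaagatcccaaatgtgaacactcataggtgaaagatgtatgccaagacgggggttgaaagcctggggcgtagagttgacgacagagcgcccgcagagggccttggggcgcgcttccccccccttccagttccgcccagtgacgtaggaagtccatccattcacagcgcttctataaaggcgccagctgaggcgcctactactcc
Fosb (chr7:19310046-19310295, minus strand): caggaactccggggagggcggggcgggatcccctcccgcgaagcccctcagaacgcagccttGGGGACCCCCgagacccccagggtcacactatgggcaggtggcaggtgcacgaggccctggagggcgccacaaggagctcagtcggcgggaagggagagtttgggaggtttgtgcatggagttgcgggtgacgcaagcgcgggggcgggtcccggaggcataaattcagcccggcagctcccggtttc
Fosl2 (chr5:32136222-32136471, plus strand): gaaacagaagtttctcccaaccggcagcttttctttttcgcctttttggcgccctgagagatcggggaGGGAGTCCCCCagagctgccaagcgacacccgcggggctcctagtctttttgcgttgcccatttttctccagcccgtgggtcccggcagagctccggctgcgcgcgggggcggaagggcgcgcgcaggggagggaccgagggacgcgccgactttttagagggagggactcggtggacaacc
Jun (chr4:95052223-95052472, minus strand): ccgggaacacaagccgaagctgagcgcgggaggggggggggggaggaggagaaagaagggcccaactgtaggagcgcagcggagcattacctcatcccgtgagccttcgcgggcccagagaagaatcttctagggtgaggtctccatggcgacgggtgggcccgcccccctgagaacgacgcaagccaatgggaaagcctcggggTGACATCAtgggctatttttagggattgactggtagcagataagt

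Windows of the same length from RefSeq were used for 8 of the 10 members (10 windows, 3 of them for Maff), and none for Fosl1 and Egr1. Any member window on chromosome 18, where Egr1 lies, was left out. The 10 windows were searched on both strands for the TRE (TGAGTCA), the CRE (TGACGTCA), TGACATCA, the CArG box bound by serum response factor and the NF-kB motif. The NF-kB motif was matched at 214 to 205 bases before the start of Fos, at 188 to 179 bases in Fosb, and in Fosl2 by 2 matches that overlap (182 to 173 and 181 to 172 bases). It was present in 3.9% of all 32851 promoter windows. The windows of Fos, Fosb and Fosl2 had 58.4, 68.8 and 64.4% G and C, and the median over all windows was 52.4%. The share of 3.9% is not matched for this. TGACATCA was matched in Jun (45 to 38 bases before the start) and in 1 Maff window (45 to 38 bases), and in 2.93% of all windows. That Maff window also held an NF-kB match (70 to 61 bases), and another Maff window held a CRE (29 to 22 bases), which 1.55% of all windows hold. The windows of Junb, Jund and Atf3 held none of these motifs, and no member window held a TRE (4.46% of all windows) or a CArG box (1.47%). Bases outside these windows were not searched, nor were Fosl1 and Egr1, so a missing match does not mean that a gene lacks the motif. These matches are descriptions of letters and not of bound sites.

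The question was which AP-1 genes differed in PCs after TNF. Of the 10 members, all of which passed the filter on low counts (Fosl1 only through the TNF group), 8 were higher and 1 (Fosb) was lower after TNF as differentially expressed genes (DEGs, edgeR adjusted p under 0.05), and Fos was not called. Across all 14329 tested genes, 59.6% were DEGs (29.5% higher and 30.1% lower). The TNF libraries did not overlap the PBS libraries for 9 members, against 60.7% of all tested genes, and 8 of the 9 were higher (29.9% of all tested genes). The median log2 fold change was 1.63 over the members and 0.0017 over all tested genes. With a change of at least 2-fold also required, 6 members were higher and Fosb was lower (31.6% of all tested genes in either direction, 14.4% higher). In bulk samples, fewer cells of a type and less RNA per cell cannot be told apart. Levels per library are given as counts per 1000000 (CPM), with library sizes scaled by TMM, the trimmed mean of M-values.

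**Figure D1:**
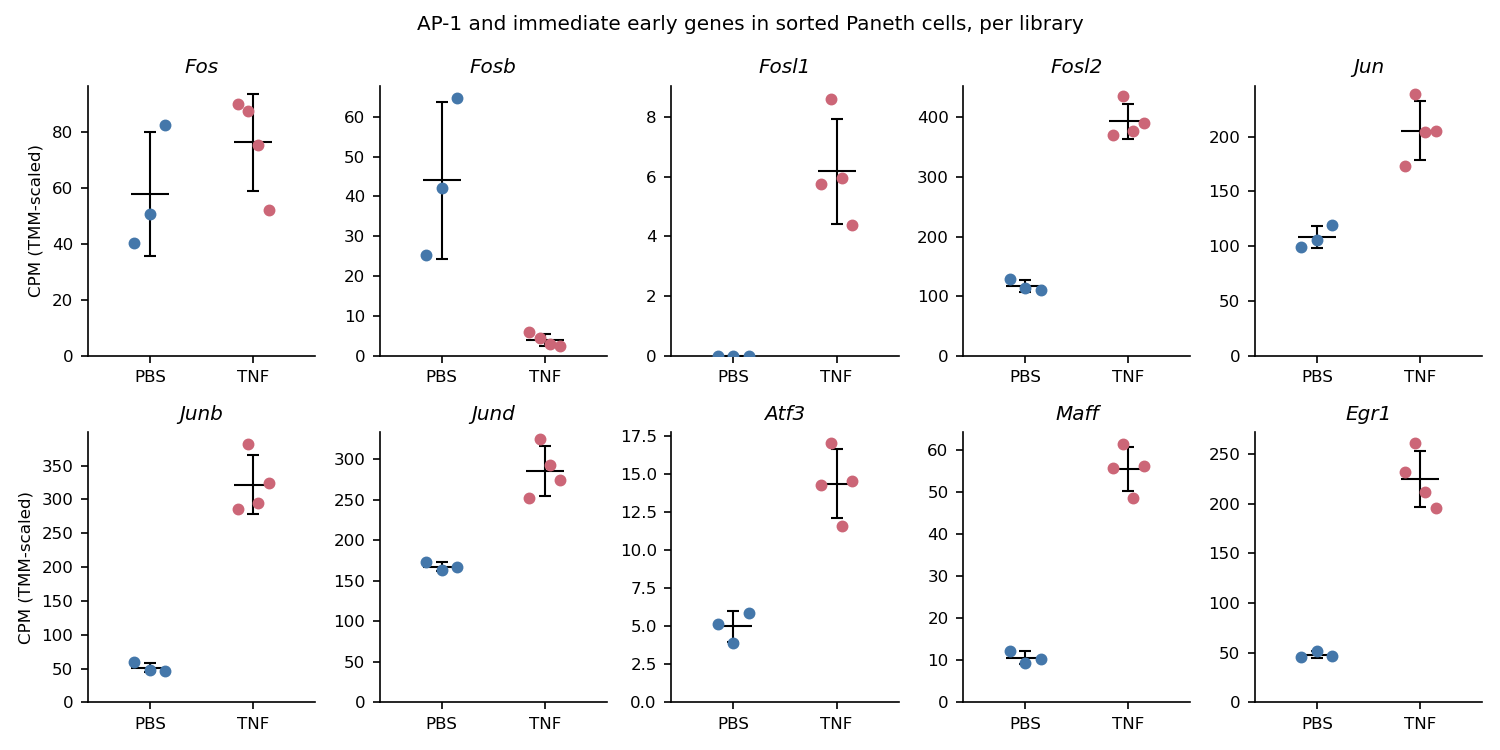
Level of each gene (vertical axis, TMM-scaled CPM, each panel with its own axis from 0) in the 3 PBS and 4 TNF libraries. Points are libraries, the horizontal bar is the mean and the whiskers are the SD. The groups overlap for Fos and lie apart for the other 9 genes, with Fosb lower and the others higher after TNF.

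Among the FOS family, Fosl2, which encodes the subunit FRA2, rose and varied little between libraries. Fosl2 (ENSMUSG00000029135, GRCm39 chromosome 5, 32292707 to 32315186) had 129, 113 and 111 CPM after PBS and 371, 436, 377 and 390 CPM after TNF. All TNF libraries lay far above all PBS libraries, with little spread within either group. Its PBS mean of 118 ± 9.79 CPM (SD, n = 3) compared with a TNF mean of 393 ± 29.2 CPM (SD, n = 4). The rise on the log2 scale was 1.74 ± 0.11 (SE), with an edgeR adjusted p of 2.36e-08.

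Fosl1, which encodes FRA1, was seen only after TNF in these libraries. Fosl1 (ENSMUSG00000024912, chromosome 19, 5497575 to 5505974) had 0 counts in each PBS library and 103, 146, 111 and 67 counts in the TNF libraries (5.76, 8.6, 5.94 and 4.38 CPM). It was at least 113-fold higher after TNF, against a floor of 3 counts over the PBS group (edgeR adjusted p = 4.76e-07). Since the floor then rests on fewer libraries, this bound was 72.5 when PBS replicate 2 was left out and 74.1 when PBS replicate 3 was. It remained a gene of low level, at 6.17 ± 1.76 CPM (SD, n = 4). On the opposite strand, exons of Ccdc85b cover 57.2% of the exon bases of Fosl1, and whether the counting used strand is not stated. Ccdc85b itself had 130, 141 and 90 counts in the PBS libraries, in which Fosl1 had none, and was not called. The neutrophil markers S100a9 and Ly6g had the same pattern, with 0 counts in each PBS library. In the TNF libraries they had 3.21 to 7.84 and 1.11 to 5.7 CPM. Of the other leukocyte markers, S100a8 had 0 counts after PBS and 32 after TNF. Tyrobp had 0 counts in all libraries, Fcer1g had 4 after PBS and 3 after TNF, Itgam and Cd68 were not called, and Ptprc fell. The part of cells with S100a9 and Ly6g in the rise of Fosl1 was not tested.

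Fosb moved the other way. Fosb (ENSMUSG00000003545, chromosome 7, 19036621 to 19043976) encodes a close paralog of FOS whose truncated splice form is known to persist in neurons. It had 25.4, 42.2 and 64.6 CPM after PBS and 6.04, 4.47, 3.1 and 2.61 CPM after TNF. Although the PBS libraries differed among themselves by 2.54-fold, every TNF library was below the lowest of them. Mean levels were 44 ± 19.7 CPM in PBS (SD, n = 3) and 4.06 ± 1.54 CPM in TNF (SD, n = 4), hence 10.9-fold lower, and the log2 fold change was -3.43 ± 0.35 (SE, edgeR adjusted p = 2.37e-05). Only 1.94% of tested genes had a lower log2 fold change. The log2 fold change was -3.06 without PBS replicate 3, which had the highest Fosb level.

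Fos, the best known immediate early gene, was not a DEG. Fos (ENSMUSG00000021250, chromosome 12, 85520658 to 85524047) had 40.2, 50.8 and 82.7 CPM after PBS and 90.2, 87.4, 75.5 and 52.2 CPM after TNF. The groups overlapped, since PBS replicate 3 was above 2 of the TNF libraries. The log2 fold change was 0.40 ± 0.26 (SE, 95% interval -0.19 to 0.99, edgeR adjusted p = 0.22), an interval that holds both no change and the rise seen for Jun. Without PBS replicate 3, Fos was called higher (log2 fold change 0.74, edgeR adjusted p = 0.00736, range over its 15 alternatives 0.00736 to 0.633).

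Fos and Fosb varied together within the groups while they parted between the groups. The PBS library with the lowest Fos level was also the lowest for Fosb (replicate 1), and the one with the highest Fos level was the highest for Fosb (replicate 3). In the TNF group, replicate 1 was the highest and replicate 4 the lowest for both genes. Within a library, the ratio of Fosb counts to Fos counts was 0.631, 0.83 and 0.78 after PBS, and 0.067, 0.0512, 0.0411 and 0.0501 after TNF. This ratio does not depend on how libraries were scaled, and its mean was 0.747 ± 0.103 (SD, n = 3) and 0.0523 ± 0.0107 (SD, n = 4). The ratio of Egr1 to Fos counts went the other way, with 1.13, 1.02 and 0.561 after PBS and 2.58, 2.98, 2.81 and 3.75 after TNF.

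**Figure D2:**
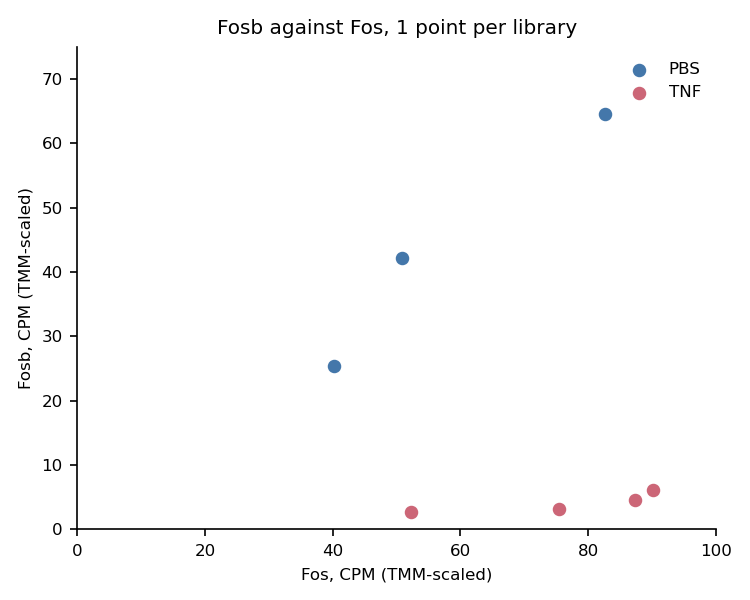
Level of Fosb (vertical axis, TMM-scaled CPM) against the level of Fos (horizontal axis, TMM-scaled CPM), with 1 point per library and colours for PBS and TNF. Fosb is between 25.4 and 64.6 CPM in the PBS libraries and at most 6.04 CPM in the TNF libraries, over similar levels of Fos.

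All 3 JUN genes rose, and Junb rose most. Junb (ENSMUSG00000052837, chromosome 8, 85701113 to 85705359), a JUN protein with weaker transactivation than JUN, had 59.4, 47.5 and 47 CPM after PBS and 286, 382, 295 and 324 CPM after TNF. Each TNF library was several times above the highest PBS library. With means of 51.3 ± 7.01 CPM in PBS (SD, n = 3) and 322 ± 43.6 CPM in TNF (SD, n = 4), Junb was 6.27-fold higher (log2 fold change 2.65 ± 0.14, SE, edgeR adjusted p = 3.79e-09). Of all tested genes, 3.37% had a higher log2 fold change.

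Jun (ENSMUSG00000052684, chromosome 4, 94937271 to 94940459), the target of the JNK kinases, had 99.1, 106 and 119 CPM after PBS and 173, 239, 204 and 205 CPM after TNF. The groups did not overlap, and the log2 fold change was 0.93 ± 0.12 (SE, edgeR adjusted p = 1.8e-05). Jund (ENSMUSG00000071076, chromosome 8, 71151599 to 71153265), the JUN gene that is expressed in most resting cells, had 173, 163 and 167 CPM after PBS and 252, 325, 293 and 274 CPM after TNF. Its rise was the smallest of the members called (log2 fold change 0.77 ± 0.11, edgeR adjusted p = 4e-05). The lncRNA Gm11175 on the opposite strand shares 52.6% of the exon bases of Jund, but it had only 17 to 49 counts per library, against 2802 to 5526 for Jund. For Jun, the antisense gene Junos had 14 to 46 counts per library.

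The members outside the FOS and JUN families rose as well. Egr1 (ENSMUSG00000038418, chromosome 18, 34992876 to 34998049), a target of serum response factor in many cells, had 45.3, 51.9 and 46.4 CPM after PBS and 232, 261, 212 and 196 CPM after TNF. The PBS libraries were close to each other, and the TNF libraries were all higher. Against a PBS mean of 47.9 ± 3.54 CPM (SD, n = 3), the TNF mean of 225 ± 27.9 CPM (SD, n = 4) was 4.71-fold higher (log2 fold change 2.23 ± 0.12, edgeR adjusted p = 5.58e-09).

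Maff (ENSMUSG00000042622, chromosome 15, 79230821 to 79243276) had 12.3, 9.3 and 10.2 CPM after PBS and 55.6, 61.5, 48.6 and 56.2 CPM after TNF. This was a 5.22-fold rise of the mean (log2 fold change 2.39 ± 0.14, edgeR adjusted p = 8.66e-09), with a spread much smaller than the change. Atf3 (ENSMUSG00000026628, chromosome 1, 190902493 to 190950241) stayed at a low level, with 5.19, 3.92 and 5.88 CPM after PBS and 14.3, 17.1, 11.6 and 14.6 CPM after TNF. Its rise was 1.53 ± 0.21 on the log2 scale (SE, edgeR adjusted p = 2.36e-05). For Junb, Egr1, Maff, Jun and Jund the TNF library with the highest level was replicate 2, as it was for Fosl1, Fosl2 and Atf3.

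**Figure D3:**
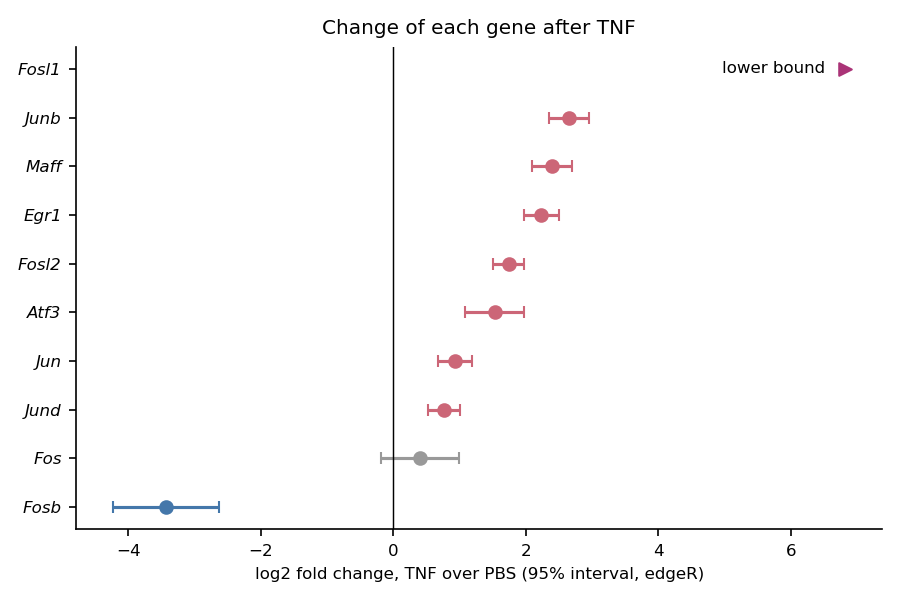
Log2 fold change of TNF over PBS (horizontal axis) for each gene (vertical axis), with 95% intervals from the edgeR fit. The arrowhead for Fosl1 is its lower bound of 113-fold, the grey point is Fos (not called), and the value below 0 is Fosb at -3.43.

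To compare levels between genes, CPM was divided by the merged exon length in kb (RPKM), which shows how the make-up of each family differed. In the JUN family, Jund led after PBS with 101 ± 3.03 RPKM (SD, n = 3), followed by Jun with 33.8 ± 3.12 and Junb with 21.5 ± 2.94. After TNF, Jund had 172 ± 18.6 RPKM (SD, n = 4) and Junb 135 ± 18.3, with overlapping ranges, and Jun had 64.4 ± 8.39. The share of Junb in the summed JUN level was 15.6%, 13.2% and 12.6% in the PBS libraries and 36.9%, 37.3%, 34.1% and 37.3% in the TNF libraries. Jund held 64.5% ± 0.657 in PBS (SD, n = 3) but 46.3% ± 1.47 in TNF libraries (SD, n = 4).

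In the FOS family, Fos held 56.1% ± 5.92 of the summed level in PBS (SD, n = 3) but 43.4% ± 5.68 in TNF libraries (SD, n = 4). Fosl2 held 37%, 27.8% and 19.1% in the PBS libraries and 45.9%, 49.9%, 50.6% and 60.3% in the TNF libraries, so its share was higher in every TNF library than in any PBS library. Fosb held 15.9% ± 3.35 after PBS and 0.866% ± 0.265 after TNF, and Fosl1 held 0% and 4.05% ± 0.704. These shares are descriptions without a test and depend on the length used. With the length of the canonical transcript in place of merged exons, which was chosen after the data were seen, Junb (178 ± 24.1 RPKM) and not Jund (172 ± 18.6 RPKM) had the highest mean after TNF, again with overlapping ranges.

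**Figure D4:**
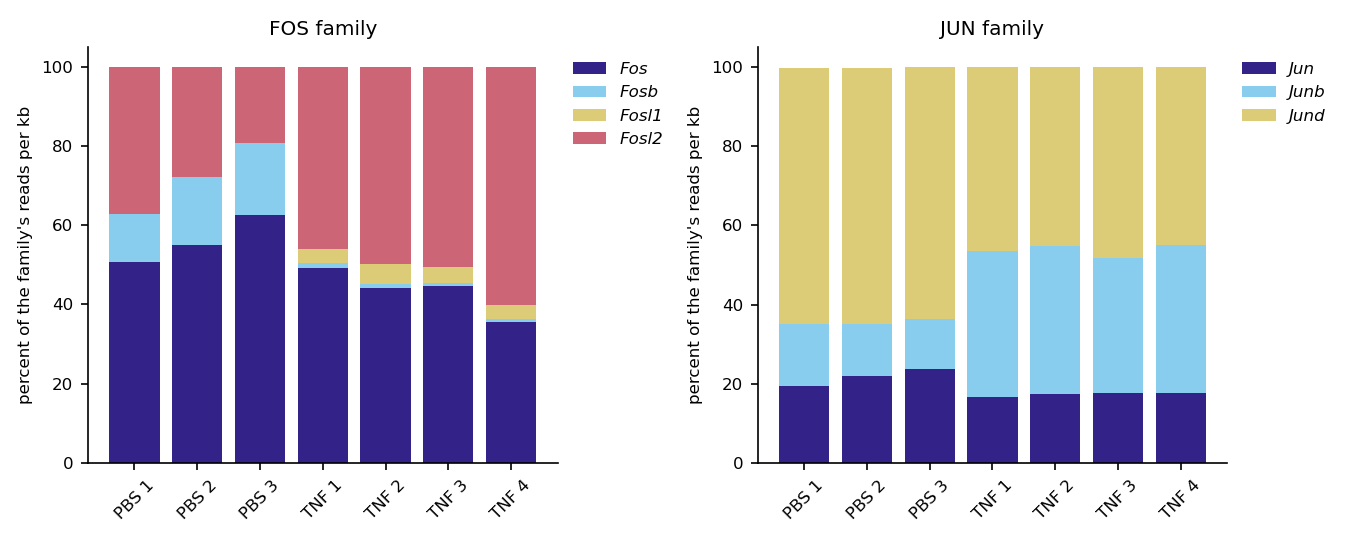
Share of each gene in the summed level of its family (vertical axis, percent of reads per kb of merged exons) in each library (horizontal axis). Fosb (light blue, left) shrinks from 12.1 to 18.4% after PBS to at most 1.24% after TNF, and Junb (light blue, right) grows from at most 15.6% to at least 34.1%.

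The order of all members by RPKM after PBS was Jund, Jun, Fos, Junb, Fosl2, Egr1, Fosb, Maff, Atf3 and Fosl1. Neighbours whose libraries overlapped were Jun and Fos, Fos and Junb, Fosl2 and Egr1, and Egr1 and Fosb. After TNF the order was Jund, Junb, Jun, Egr1, Fosl2, Fos, Maff, Atf3, Fosl1 and Fosb. There, Jund and Junb, Jun and Egr1, and Fosl2 and Fos overlapped. By merged exon length, Fosb was thus the seventh of the members after PBS and the last after TNF. The order depends on the length used. With the canonical transcript, Fosb had rank 6 after PBS and rank 10 after TNF. Fosl2 (56.4 ± 4.19 RPKM) then had a higher mean than Egr1 (50.1 ± 6.21 RPKM) after TNF, with overlapping ranges.

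Profiles over the 7 libraries were compared by the root mean square difference of centred log2 CPM, among the 8428 named genes whose mean reached 10 CPM. The profile nearest to Jund was that of Tlnrd1 (difference 0.0299), and those nearest to Jun, Fosl2 and Junb were Tshz2 (0.0419), Plpp2 (0.0496) and H2-Q4 (0.0557). For Fosb the nearest profiles were farther, with Pnma8b at 0.306 (log2 fold change -3.14) and Cracr2a at 0.307 (-3.35). For Fosl1 they were Nos2 (0.327) and Lrg1 (0.361), and for Fos they were Arglu1 (0.131) and Ppcdc (0.15).

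Of the other bZIP factors, 22 of 25 could be tested, of which 13 rose and 4 fell. Across all tested genes, 29.5% were called higher and 30.1% lower. Of the 13, Batf2 and Jdp2 passed the filter on low counts only through the TNF group. Cebpd, a C/EBP factor of the acute phase response, rose most, from 3.15 to 5.49 CPM in the PBS libraries to 97.5 to 134 CPM in the TNF libraries (log2 fold change 4.79 ± 0.20, SE, edgeR adjusted p = 9.02e-10). Creb1, which binds the CRE, had the largest fall, from 62.4, 67.4 and 72.5 CPM to 45.7, 26.7, 28 and 25.9 CPM (-1.09 ± 0.18, edgeR adjusted p = 0.000164). The genes of this list with the highest CPM, Atf4, Nfe2l1 and Atf6, all rose, with log2 fold changes of 0.62, 0.93 and 0.86.

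Of 31 other immediate early genes, 29 could be tested, of which 20 rose and 2 fell, against 29.5% and 30.1% of all tested genes. The cytokine signalling inhibitor Socs3 rose most, from 12 to 26.9 CPM to 276 to 423 CPM (log2 fold change 4.37 ± 0.31, SE, edgeR adjusted p = 1.91e-06). Klf6, a zinc finger factor, rose by 3.68 ± 0.14 and reached at least 796 CPM in each TNF library, and the anti-apoptotic Mcl1 rose by 1.18 ± 0.12. As for Fosb, a fall was seen for Nr4a2, an orphan nuclear receptor, from 17.8, 11.9 and 11 CPM to 1.84, 2.18, 1.6 and 1.83 CPM (-2.86 ± 0.24, edgeR adjusted p = 2.95e-07).

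Upstream of AP-1, 13 of 25 tested genes of the MAP kinase cascades rose and 5 fell, against 29.5% and 30.1% of all tested genes. Mapk3, which encodes a kinase of the ERK branch, fell by 0.70 ± 0.14 on the log2 scale (edgeR adjusted p = 0.000749). Rps6ka1, a kinase below ERK, was not called (0.01 ± 0.11). The p38 beta gene Mapk11 rose most, from 0.407 to 0.556 CPM to 19.4 to 22.4 CPM (5.48 ± 0.23 on the log2 scale, edgeR adjusted p = 4.31e-10), and passed the filter on low counts only through the TNF group. Map2k6, which encodes a kinase that activates p38, fell most, from 71.9, 48.9 and 54.7 CPM to 4.64, 5.65, 4.23 and 4.05 CPM (-3.65 ± 0.17, edgeR adjusted p = 8.51e-10).

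Of 7 genes of serum response factor and its cofactors, 2 rose and 1 fell, against 29.5% and 30.1% of all tested genes. The ternary complex factor Elk4 rose from 59.2 to 64.8 CPM to 218 to 246 CPM (1.88 ± 0.10 on the log2 scale, edgeR adjusted p = 4.56e-09). Mrtfa, an actin-regulated cofactor, fell by 0.71 ± 0.13 on the log2 scale, and Mrtfb (0.16 ± 0.09) and Fhl2 (0.27 ± 0.14) were not called.

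Of 22 genes known as AP-1 targets in other cells, 14 could be tested, of which 11 rose and 2 fell. Across all tested genes, 29.5% rose and 30.1% fell. Of the 11, Areg, Ereg and Il33 passed the filter on low counts only through the TNF group, in which they were high. The EGF receptor ligand Areg rose most, from 0.123, 0.763 and 0.212 CPM to 69.3, 88.7, 96.5 and 60.2 CPM (7.66 ± 0.36 on the log2 scale, edgeR adjusted p = 1.22e-08). The calcium-binding protein gene S100a10 rose by 3.00 ± 0.18 and the adhesion receptor gene Cd44 by 1.30 ± 0.12. Krt18, a keratin, had a log2 fold change of 0.47 ± 0.16 (edgeR adjusted p = 0.0185), and this call was lost without PBS replicate 3 (0.29, adjusted p = 0.0764). The cyclin gene Ccnd1 fell by 0.79 ± 0.12 on the log2 scale (edgeR adjusted p = 5.35e-05).

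**Figure D5:**
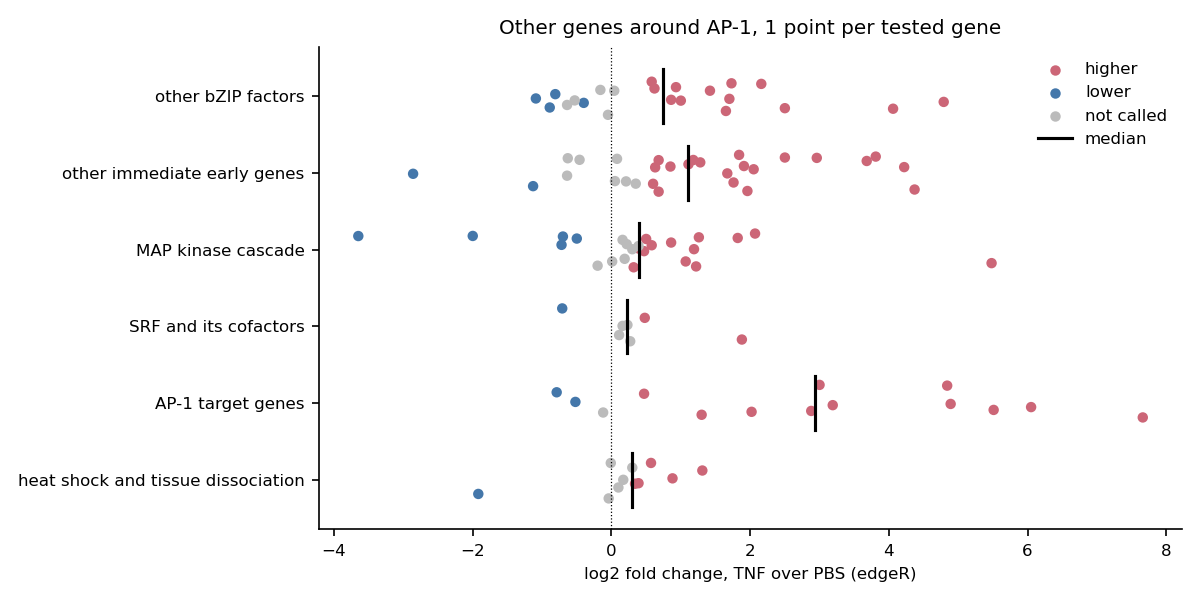
Log2 fold change of TNF over PBS (horizontal axis) of each tested gene in 6 lists (vertical axis), coloured by the edgeR call, with the median of each list as a black line. Points lie on both sides of 0 in each list, from Map2k6 at -3.65 to Areg at 7.66, and genes that did not pass the filter on low counts are not drawn.

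Heat shock genes, which tissue dissociation is also known to induce, were read beside these results. The sum over the 13 genes was 1388 to 1694 CPM in the PBS libraries and 1754 to 2080 CPM in the TNF libraries. Of 11 that could be tested, 5 rose and 1 fell, against 29.5% and 30.1% of all tested genes. The count of rises was 3 without PBS replicate 1, PBS replicate 3 or TNF replicate 3. Bag3 rose by 1.31 ± 0.12 and Hsph1 fell by 1.92 ± 0.14 on the log2 scale (edgeR adjusted p = 4.78e-07 and 9.5e-08). Those with the highest CPM were Hsp90ab1 (0.30 ± 0.13, not called), Hspa8 (0.57 ± 0.13, called) and Hspd1 (0.10 ± 0.12, not called). The near-identical inducible genes Hspa1a and Hspa1b, between which reads may be split, were low. Hspa1a had 7 counts in all PBS libraries together and 3 in all TNF libraries, and Hspa1b had 38 and 52 (not called). The part of dissociation in the members' levels was not tested.

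Markers of PCs were abundant in each library, with summed levels of 168226 to 273180 CPM after PBS and 172700 to 313908 CPM after TNF over 10 genes, of which 4 rose and 2 fell. Tuft cell markers summed to 1445 to 2386 CPM after PBS and 273 to 694 CPM after TNF, with 7 of 7 genes lower, and stem cell markers to 2849 to 4001 and 1109 to 1762 CPM, with 7 of 7 lower. Enterocyte markers summed to 766 to 936 and 313 to 384 CPM, goblet cell markers to 7612 to 14385 and 6832 to 7448 CPM, and enteroendocrine cell markers to 29.1 to 98.8 and 58 to 89.7 CPM. Of the tested genes in these 3 lists, 6 of 8, 5 of 8 and 2 of 8 fell and 1 rose in each. Across all tested genes, 30.1% were lower and 29.5% higher. Of the markers that fell, Gnat3, Ascl2, Sis, Apoa1, Apoa4 and Zg16 passed the filter on low counts only through the PBS group, in which they were high. The enteroendocrine marker that rose, Tac1, passed it only through the TNF group. The summed tuft, stem, enterocyte and goblet cell levels were lower in every TNF library than in any PBS library, as was Fosb, and their part in its fall was not tested. The 14 leukocyte markers summed to 13.3 to 28.3 CPM after PBS and 20.5 to 24.9 CPM after TNF, with Cd3e, Ms4a1 and Tyrobp at 0 in all libraries, and 2 of 5 tested genes rose and 1 fell. The sum was carried by Ptprc after PBS (11.4 to 26.2 CPM), which fell by 0.95 on the log2 scale (edgeR adjusted p = 0.027). Itgam and Cd68 were not called (edgeR adjusted p = 0.851 and 0.125), and Fcer1g had 4 counts after PBS and 3 after TNF. The neutrophil markers S100a9, Ly6g and S100a8 were at 0 in each PBS library and had 399, 233 and 32 counts in all TNF libraries together, and S100a9 and Ly6g passed the filter on low counts only through the TNF group. They moved in the same direction as the members that rose, and their part in that rise was not tested. The 12 stromal and endothelial markers summed to 4.37 to 4.45 and 8.5 to 11.1 CPM, with Col1a2 and Kdr at 0. The higher sum after TNF was that of Vwf, which rose from 2.17 to 2.53 CPM to 7.78 to 9.5 CPM (edgeR adjusted p = 9.9e-06), while Pdgfrb fell from 1.67 to 1.91 CPM to 0.118 to 1.06 CPM (adjusted p = 0.0226, having passed the filter only through the PBS group) and the other 10 genes were at most 0.391 CPM in any library. The part of Vwf-expressing cells in the members' rise was not tested. The 6 erythroid markers summed to at most 0.235 CPM, with all 4 globin genes at 0.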

How the data were processed

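RNA of sorted PCs from 7 mice was read single-end on the Element AVITI platform. The authors deposited raw counts, as whole numbers of reads per Ensembl gene and library. The submitters' processing notes name FastQC, Trimmomatic 0.39, STAR 2.7.10a and DESeq2 and the builds mm10 and mm39, without roles. Neither the annotation nor the strand setting is stated in the sources used here, so counts of overlapping genes are uncertain. Symbols and coordinates were taken by identifier from GENCODE M39 on GRCm39 (98.8% of identifiers found), and promoters from RefSeq on GRCm38.p6.

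TNF was compared with PBS by edgeR 4.0.16 (quasi-likelihood) in R 4.3.3 (robust, two-sided, filterByExpr, TMM, no covariates), fitted over all genes with Benjamini-Hochberg adjustment and tested on simulated data. SE came from the fold change and the F statistic. Floors cover counting error only. The members and lists were chosen with earlier results of these data known. From each list, the 3 tested genes with the highest mean CPM and the called genes with the largest rise and fall were named, and others were chosen after their values were seen. A gene that this rule names is not reported here. Each member's 2 nearest profiles were ranked on log2 CPM with an offset of 0.5. Alternatives were other scalings (DESeq2 size factors, total counts, TMM without alpha-defensins and Lyz1), no filter or 1 CPM in 3 libraries, DESeq2 1.42.0, limma-voom (limma 3.58.1), a 2-fold threshold, the replicate number as a block, and each library left out.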

Additional observations from a re-analysis of the deposited data

Results flagged for a closer look

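In the TNF group, the highest and lowest of the 4 libraries were compared with the others for 68 values by the ratio of the gap to the range, and 4 values had a library that stood apart, where chance gives about 1 in 20. Creb1 had 45.7 CPM in TNF replicate 1 and 25.9 to 28 CPM in the other TNF libraries (ratio 0.892). The summed level of the 10 AP-1 and immediate early genes was 1822 CPM in TNF replicate 2 and 1486 to 1525 CPM in the others (ratio 0.884). The share of Junb in the JUN family was 34.1% in TNF replicate 3 and 36.9 to 37.3% in the others (ratio 0.875). The erythroid markers summed to 0.235 CPM in TNF replicate 2 and to 0 in the others (ratio 1). The PBS group, with 3 libraries, was too small to be examined in this way.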

How the results depend on the processing

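Over 15 alternatives for each of the 10 members, 149 of 150 fold changes had the same direction and call, and none changed direction. The exception was Fos, which was called higher without PBS replicate 3 (0.74). With a 2-fold threshold there were 4530 DEGs in place of 8543, with 2065 higher in place of 4229 and 2465 lower in place of 4314. Under scaling by total counts the median over tested genes was -0.163 in place of 0.0017 on the log2 scale, 3147 DEGs were higher and 4614 lower, and Jund and Jun had log2 fold changes of 0.60 and 0.74. With the replicate number as a block, 7131 genes were called, as were 9 members (adjusted p at most 0.00194), and Fos was not (0.60, adjusted p = 0.0506). The numbers mark different mice, and the deviations of same-numbered libraries correlated at -0.237, -0.0295 and -0.142. With the block Krt18 lost its call (0.44), 3 heat shock genes in place of 5 were called higher and 2 other bZIP factors in place of 4 lower. Hsp90ab1 was called higher by DESeq2 (0.29), by limma-voom (0.30) and without TNF replicate 1 (0.33), and Fhl2 without TNF replicate 4 (0.34). With 3 and 4 mice per group, a change of the size of that of Fos could not be told from its spread. In the PBS libraries Fosl1 rests on 0 counts and Atf3 on 84, 77 and 111 counts.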

Other observations

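The genes described here were chosen after their values were seen. The other small MAF genes moved with Maff: Mafg rose from 28.2 to 33.2 CPM in the PBS libraries to 85.5 to 108 CPM in the TNF libraries (log2 fold change 1.70 ± 0.12, edgeR adjusted p = 3.91e-08), and Mafk by 1.65 ± 0.12 (adjusted p = 5.07e-08). Bach1, a repressor that pairs with small MAF proteins, rose by 1.42 ± 0.10 (adjusted p = 3.92e-08), whereas Nfe2l2, an activator that also pairs with them, was not called (-0.16 ± 0.12, adjusted p = 0.254). Hmox1, a target gene of that pair, rose from 2.01 to 2.24 CPM to 10.8 to 17.8 CPM (2.88 ± 0.23, adjusted p = 1.85e-07). Jdp2, a bZIP partner of JUN proteins that represses transcription, rose from at most 0.712 CPM to at least 7.1 CPM (4.06 ± 0.41, adjusted p = 1.4e-06), and passed the filter on low counts only through the TNF group.

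Of the 4 p38 genes, 3 were called higher and 1 lower. Beside Mapk11, Mapk12 rose by 1.26 ± 0.30 on the log2 scale (edgeR adjusted p = 0.00248) and Mapk13 (94.5 to 101 CPM in PBS, 153 to 198 CPM in TNF libraries) by 0.86 ± 0.12 (adjusted p = 2.26e-05), while Mapk14 fell by 0.50 ± 0.11 (adjusted p = 0.0013). Of the NR4A receptors, only Nr4a2 was called, with Nr4a1 at -0.63 ± 0.26 (adjusted p = 0.0538) and Nr4a3 at 0.21 ± 0.55 (adjusted p = 0.757), and whether these differ from each other was not tested. The antiproliferative gene Btg2 was the other immediate early gene that fell (-1.13 ± 0.12, adjusted p = 2.42e-06).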
